A study of Mus musculus with 8 samples.

Results

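The 10 genes described here mark the endothelium of liver vessels, and were measured among 19321 genes in mouse liver and liver tumours. The first 5, Stab1, Stab2, Lyve1, Clec4g and Fcgr2b, mark liver sinusoidal endothelium, and the other 5, Pecam1, Cd34, Plvap, Vwf and Kdr, mark capillary or general blood vessel endothelium. They were taken by gene symbol from the array's probe annotation, and each had 1 probe on the array. Their values set no filter, but the members were chosen with earlier results of these data known. Tumour tissue (3 arrays) and non-tumour tissue (3 arrays) came from the same 3 livers, numbered 117, 186 and 1, of mice on high fat diet (HFD in the figures). Normal diet liver (2 arrays) came from mice numbered 117 and 120, where the number 117 cannot be the high fat diet animal and pairs nothing. Every mouse, those on normal diet included, had received DMBA, a polycyclic aromatic hydrocarbon carcinogen, at 4 to 5 days of age, and ate its diet for 30 weeks. No group without DMBA was measured, and strain, sex and the way tumour tissue was cut from the liver are not given in the sources used here. RNA was total RNA of whole tissue, so a lower share of endothelial cells and less RNA per endothelial cell cannot be told apart for any marker below.

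Liver sinusoids are lined by endothelial cells that have open fenestrae and lack a continuous basement membrane. These cells clear waste from blood through scavenger receptors, among them the stabilins (Stab1, Stab2). They also carry the hyaluronan receptor Lyve1, the C-type lectin Clec4g (LSECtin) and the inhibitory Fc receptor Fcgr2b. Ordinary capillaries lack this set, lie on a basement membrane and carry more of the sialomucin Cd34 and the junction protein Pecam1 at their surface. Sinusoids that take on capillary features in chronic liver injury or in hepatocellular carcinoma are called capillarised.

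Promoters are shown for 3 members: Cd34, which had the largest fold between tumour and non-tumour tissue among the members, Clec4g, the sinusoidal marker with the lowest tumour values relative to non-tumour tissue, and Stab1, the scavenger receptor whose promoter shares a motif match with Cd34. Each sequence runs 5′ to 3′ on the gene's strand, from 250 bases before to 50 bases after the annotated start, and comes from RefSeq on build GRCm38.p6. They lie at chr1:194938571-194938870 on the plus strand for Cd34, at chr8:3720602-3720901 on the minus strand for Clec4g and at chr14:31168592-31168891 on the minus strand for Stab1. Capitals mark matches to an ETS motif.
Cd34: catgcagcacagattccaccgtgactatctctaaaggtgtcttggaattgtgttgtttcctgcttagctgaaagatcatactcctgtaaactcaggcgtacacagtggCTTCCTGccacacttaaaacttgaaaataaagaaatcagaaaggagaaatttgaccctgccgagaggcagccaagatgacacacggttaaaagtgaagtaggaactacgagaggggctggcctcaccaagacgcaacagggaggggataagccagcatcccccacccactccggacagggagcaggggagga
Clec4g: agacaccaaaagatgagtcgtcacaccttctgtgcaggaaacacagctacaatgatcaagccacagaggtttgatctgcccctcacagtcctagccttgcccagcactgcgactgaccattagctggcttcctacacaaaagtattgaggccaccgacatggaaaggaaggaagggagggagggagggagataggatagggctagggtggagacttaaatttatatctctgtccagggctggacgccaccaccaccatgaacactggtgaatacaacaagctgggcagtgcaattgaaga
Stab1: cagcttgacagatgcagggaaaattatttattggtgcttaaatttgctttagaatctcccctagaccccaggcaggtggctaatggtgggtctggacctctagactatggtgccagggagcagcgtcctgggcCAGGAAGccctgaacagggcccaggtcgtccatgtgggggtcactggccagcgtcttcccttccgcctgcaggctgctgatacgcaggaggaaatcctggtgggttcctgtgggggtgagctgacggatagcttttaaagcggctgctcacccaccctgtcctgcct

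RefSeq promoters were given for 6 of the 10 members (Fcgr2b, Cd34, Kdr, Clec4g, Stab2 and Stab1). They were searched on both strands for 3 motifs of transcription factor families active in endothelium. The ETS motif CAGGAAG was found in 2 of 6, once in Cd34 at 142 bases before the start on the opposite strand and once in Stab1 at 117 bases before the start on the gene's strand, against 13.3% of 32851 mouse promoters of the same length. The GATA motif AGATAA, found in 11.2% of all promoters, and the SOX motif AACAAT, found in 10.7%, were found in 0 of 6. No matches overlapped, and a match describes the sequence and not a bound site.

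Levels below are the authors' deposited normalized intensities, in which the median listed probe of each array is 25. They cannot be compared between probes, and between arrays only roughly, since the share of probes listed ran from 81.8% (tumour of mouse 117) to 88.5% (tumour of mouse 186). With these values the median log2 difference of all genes was -0.05 for tumours against non-tumour tissue. Against normal diet liver it was -0.15 for tumours and -0.10 for non-tumour tissue. All 10 members were listed on all 8 arrays. The dimmest readings were 5.40 standard deviations of the blank spots above their mean for Cd34 and 6.26 for Vwf, and no other member fell below 17.1. Differences below are log2 changes fitted with limma to scanner signals after an offset of 50, with standard errors, and adjusted p-values cover all 16800 genes tested. A gene rose or fell where its adjusted p was below 0.05. The offset equals 38.9 to 45.1 deposited units on high fat diet arrays, and 60.1 and 64.7 on normal diet arrays. Log2 changes of dim probes such as Cd34 and Vwf are therefore smaller than the ratios of their deposited levels, which are given beside them. The 12 hepatocyte genes of a marker list summed to between 233010 and 253310 in tumours, to between 231165 and 248023 in non-tumour tissue and to between 294313 and 301614 in normal diet liver, so hepatocyte RNA was bright in every group. Of these 12 genes, 4 rose and 4 fell in tumours against non-tumour tissue, where 12.0% of all genes tested rose and 13.4% fell. There were 2 falls under a mouse block or without the non-tumour array of mouse 186 or 1, and 0 falls without that of mouse 117.

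Tumours held more of the capillary markers Cd34 and Pecam1 than non-tumour tissue of the same livers, and no marker of either class fell. Among sinusoidal markers, Clec4g was lower on all 3 tumour arrays without passing the threshold, while Stab1, Stab2, Lyve1 and Fcgr2b had mean levels in tumours at or above those in non-tumour tissue. With 2 of 10 members passing the test, against 25.4% of all genes tested, the count itself was near the background. Of all genes tested, 12.0% rose and 13.4% fell. The median log2 difference over the 10 members was 0.13, against -0.01 over all genes tested, with 0.09 over the sinusoidal and 0.32 over the capillary markers.

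**Figure D1:**
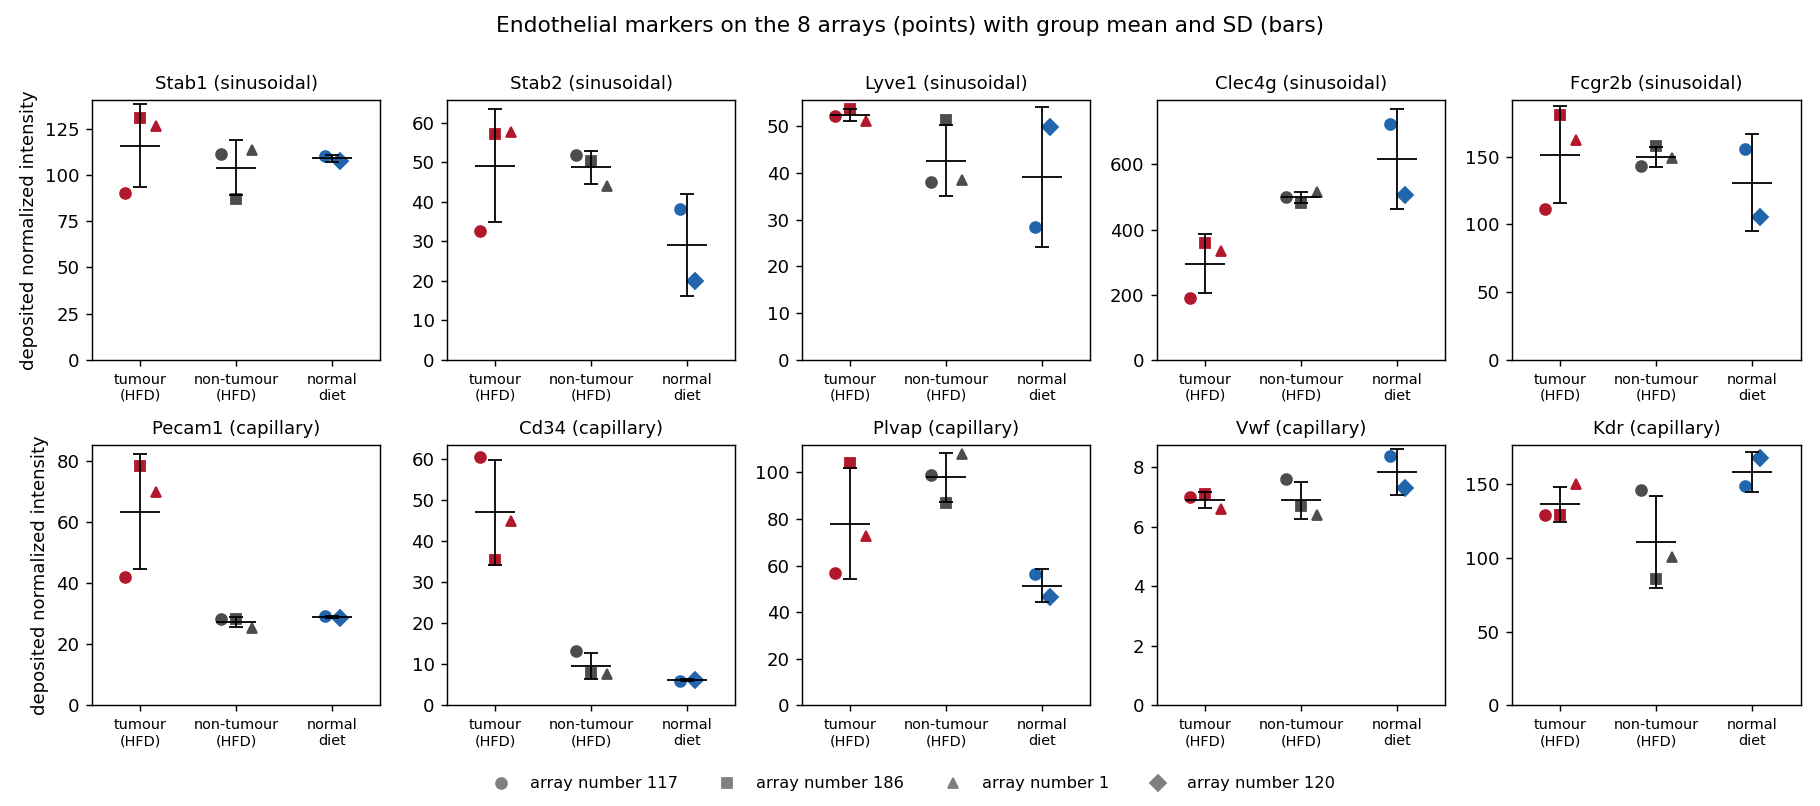
Deposited normalized intensity of the 10 members on each array, by group (tumour, non-tumour, normal diet), on linear axes from 0, with sinusoidal markers in the upper row and capillary markers in the lower row, bars for mean and SD, and a symbol for each mouse number. For Cd34 the 3 tumour arrays lie between 35.4 and 60.5, above every non-tumour array (7.6 to 13.2) and both normal diet arrays (6.0 and 6.3).

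Among the scavenger receptors, Stab1, which takes up modified lipoproteins and other ligands, had 90.1, 130.7 and 126.4 in tumours of mice 117, 186 and 1, against 111.5, 86.9 and 113.4 in their non-tumour tissue. The groups overlapped, with the tumour of mouse 117 below 2 of the 3 non-tumour arrays. The fitted log2 difference was 0.19 ± 0.09 (adjusted p = 0.216), and became a rise when the tumour array of mouse 117 was left out (adjusted p = 0.0486). Stab2, which clears hyaluronan from blood, had 32.7, 57.1 and 57.8 in tumours, against 51.9, 50.4 and 44.1 in non-tumour tissue. The tumour of mouse 117 was lowest and the other tumours were highest, so the group means almost coincided (49.2 ± 14.3 in tumours and 48.8 ± 4.14 in non-tumour tissue, SD, n = 3 each), with a log2 difference of 0.01 ± 0.12 (adjusted p = 0.980). Lyve1, a hyaluronan receptor also found on lymphatic vessels, had 52.2, 53.6 and 51.1 in tumours, against 38.1, 51.3 and 38.4 in non-tumour tissue. The non-tumour array of mouse 186 reached the tumour level, and the log2 difference was 0.17 ± 0.11 (adjusted p = 0.337).

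Clec4g, a lectin of sinusoidal endothelium that binds glycans and T cells, had 190.9, 357.9 and 335.4 in tumours, against 499.4, 481.2 and 515.4 in non-tumour tissue. All 3 tumours lay below all non-tumour arrays, with the tumour of mouse 117 lowest, and the ratio of mean levels was 0.591. The log2 difference of -0.54 ± 0.20 did not pass (adjusted p = 0.103, unadjusted p = 0.0345). It passed in 2 of 20 alternatives, scaling by the median in place of quantiles (adjusted p = 0.0448) and the authors' deposited values (adjusted p = 0.0252), and not with mouse as a block (adjusted p = 0.121) or the local background, where the difference was near 0 (adjusted p = 1.00). Fcgr2b, which removes immune complexes in sinusoids, had 111.6, 180.7 and 162.4 in tumours, against 143.0, 157.7 and 149.1 in non-tumour tissue. The non-tumour arrays lay inside the tumour range, and the log2 difference was 0.09 ± 0.14 (adjusted p = 0.701).

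Of the capillary markers, Cd34, a sialomucin of capillary endothelium and of blood progenitors, rose in tumours. It had 60.5, 35.4 and 44.8 in tumours, against 13.2, 8.0 and 7.6 in non-tumour tissue. The lowest tumour was well above the highest non-tumour array, and the ratio of mean levels was 4.89. The fitted log2 difference was 0.75 ± 0.13 (adjusted p = 0.00739). Pecam1, an adhesion protein of endothelial junctions, also rose, with 42.2, 78.2 and 69.9 in tumours, against 28.2, 28.4 and 25.3 in non-tumour tissue. The groups were separate, the tumour of mouse 117 was nearest to the non-tumour arrays, and the ratio of mean levels was 2.32. The log2 difference was 0.59 ± 0.10 (adjusted p = 0.00852). Both rises were lost when each spot's local background reading replaced the blank spots (adjusted p = 0.310 for Cd34 and 0.274 for Pecam1), a setting under which 125 genes passed in all, against 4267. Of the other rises and falls named below, those of Nid1 and Unc5b still passed with the local background and the rest did not.

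Kdr, the main receptor for vascular endothelial growth factor A, is carried by sinusoidal and capillary endothelium alike. It had 129.2, 129.2 and 150.1 in tumours, against 145.7, 85.7 and 100.4 in non-tumour tissue. The non-tumour array of mouse 117 lay among the tumours, and the log2 difference was 0.32 ± 0.13 (adjusted p = 0.138), which became a rise without that array (adjusted p = 0.00908). Plvap, the protein that forms diaphragms across fenestrae, had 57.0, 103.8 and 72.9 in tumours, against 99.0, 86.9 and 107.8 in non-tumour tissue. Mouse 186 was the exception to lower values in tumours, and the log2 difference was -0.18 ± 0.12 (adjusted p = 0.374), which became a fall without its tumour array (adjusted p = 0.0152). Vwf, a clotting protein stored in endothelium of larger vessels, had 7.0, 7.1 and 6.6 in tumours, against 7.6, 6.7 and 6.4 in non-tumour tissue. Its groups overlapped at dim signal, and the log2 difference was -0.00 ± 0.03 (adjusted p = 0.976).

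**Figure D2:**
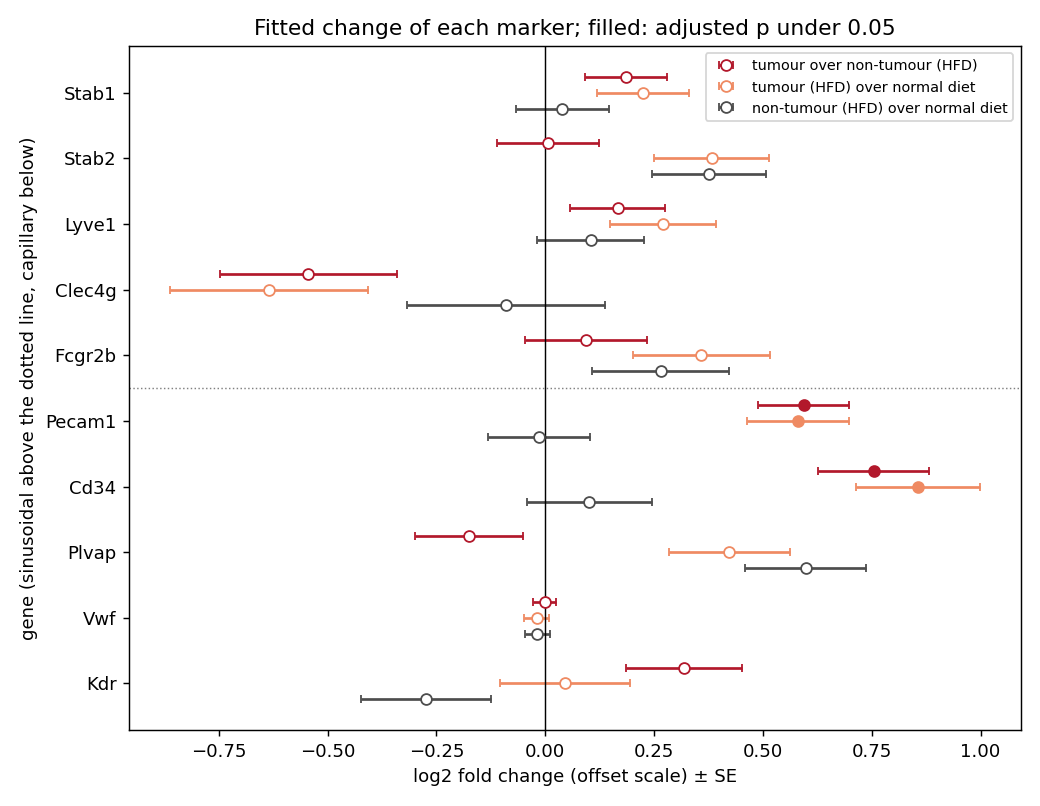
Fitted log2 differences of the 10 members with their standard errors in the 3 comparisons (tumour over non-tumour, tumour over normal diet, non-tumour over normal diet), filled where the adjusted p was below 0.05. Filled points are those of Pecam1 and Cd34 in the comparisons that hold tumour tissue, at 0.59 and 0.75 against non-tumour tissue and at 0.58 and 0.86 against normal diet liver.

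Counting members whose groups do not overlap on the deposited scale gave 2 higher (Pecam1, Cd34) and 1 lower (Clec4g) in tumours than in non-tumour tissue. Over all genes tested, 37.1% were separate by that rule, 14.9% higher and 22.2% lower. Within each mouse, Cd34 in the tumour was 4.58, 4.42 and 5.89 times the non-tumour level in mice 117, 186 and 1, and Pecam1 was 1.50, 2.75 and 2.76 times. Clec4g in the tumour was 0.382, 0.744 and 0.651 times the non-tumour level in the same mice. These 3 members thus kept 1 direction in all 3 livers. The other members did not, apart from Lyve1, which was 1.37, 1.04 and 1.33 times the non-tumour level. In mouse 117, 1 of 5 sinusoidal and 2 of 5 capillary markers were higher in the tumour. In mouse 186 the counts were 4 of 5 and 5 of 5, and in mouse 1 they were 4 of 5 and 4 of 5. The tumour of mouse 117 therefore stood apart, with a median ratio to non-tumour tissue of 0.780 for sinusoidal markers, against 1.13 and 1.11 in mice 186 and 1.

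**Figure D3:**
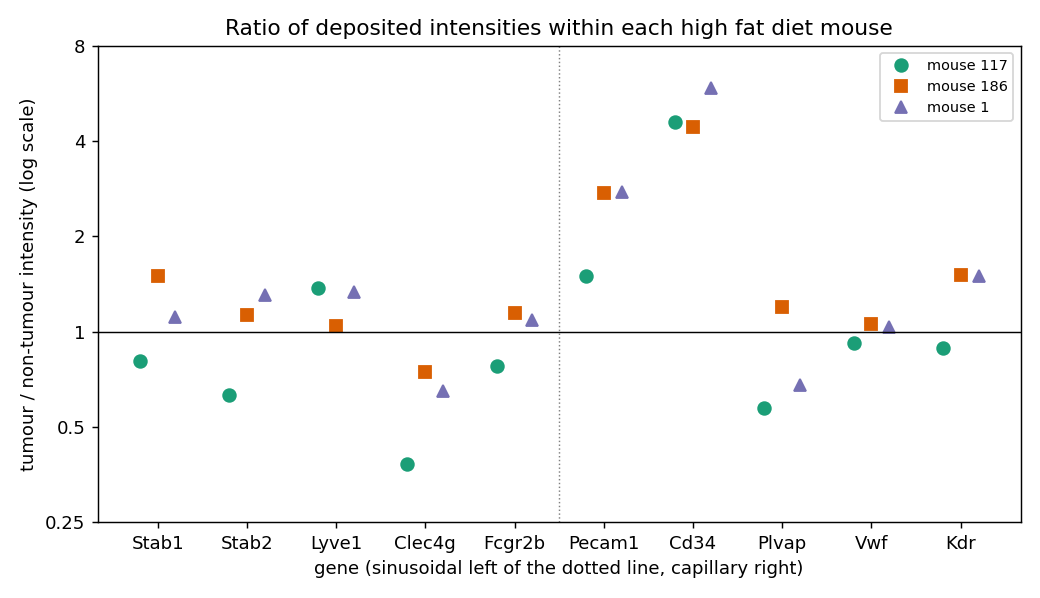
Tumour over non-tumour level of each member within mice 117, 186 and 1, on the deposited scale with a log axis. Cd34 lies at 4.42 or more and Clec4g at 0.744 or less in every mouse, while Stab1, Stab2, Fcgr2b, Vwf and Kdr lie below 1 in mouse 117 alone.

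The contrast between the classes was summarised for each array as the mean log2 value of the 5 sinusoidal markers minus that of the 5 capillary markers, set to 0 at the mean of normal diet liver. It was -0.44, -0.13 and -0.20 in tumours of mice 117, 186 and 1, and -0.03, 0.15 and 0.06 in their non-tumour tissue. The 3 tumours lay below the 3 non-tumour arrays, with a difference of means of -0.32 (SD over arrays 0.16 in tumours and 0.09 in non-tumour tissue). The capillary mean was higher in tumours by 0.30, while the sinusoidal mean differed by -0.02. Within mice 117, 186 and 1 the difference was -0.41, -0.28 and -0.26. In mouse 117 the tumour's sinusoidal mean differed by -0.23 and its capillary mean by 0.18. In mice 186 and 1 the sinusoidal mean was higher by 0.10 and 0.08 and the capillary mean by 0.38 and 0.34. Leaving out 1 member at a time kept the difference between -0.19, without Clec4g, and -0.44, without Plvap. No p-value is given for a mean over chosen members. The difference shrank to -0.051 with the local background and grew to -0.65 with the authors' deposited values.

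**Figure D4:**
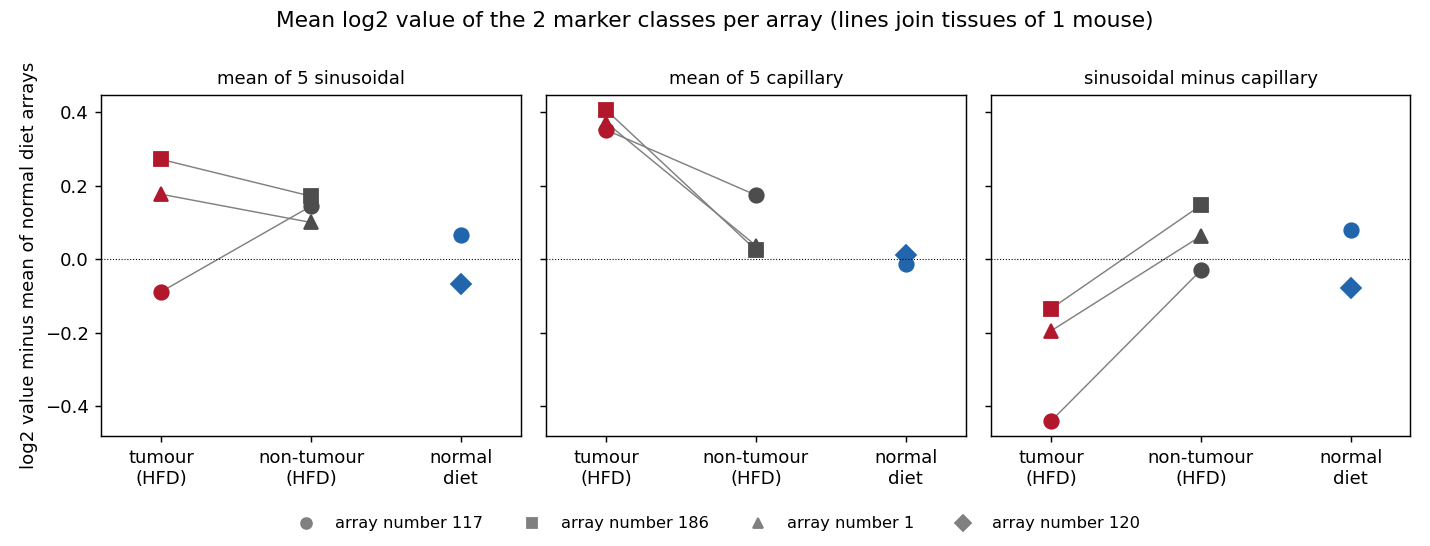
Mean log2 value of the 5 sinusoidal markers and of the 5 capillary markers on each array, and the first minus the second, relative to the mean of normal diet liver, by group, with lines joining tissues of 1 mouse. Tumour arrays lie at 0.35 to 0.41 for capillary markers, above the non-tumour arrays at 0.02 to 0.17, while the sinusoidal means of tumours (-0.09 to 0.27) span those of non-tumour tissue.

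Between non-tumour tissue of high fat diet livers and normal diet liver 0 of the 10 members passed the test. With 3.84% of all genes tested passing (1.81% rose and 2.03% fell), a count of 0 among 10 is near the background. By limma 2 members had an unadjusted p below 0.05 (Stab2 and Plvap), and the members' median size of log2 difference was 0.10, against 0.061 over all genes tested. Plvap had 99.0, 86.9 and 107.8 in non-tumour tissue, against 56.5 and 46.4 in normal diet liver. All 3 non-tumour arrays were higher than both normal diet arrays, with a ratio of mean levels of 1.90 and a log2 difference of 0.60 ± 0.14 (adjusted p = 0.0730). It passed in 6 of 19 alternatives, 1 of them without the tumour array of mouse 186 (adjusted p = 0.0130). Stab2 had 51.9, 50.4 and 44.1 in non-tumour tissue, against 38.3 and 19.9 in normal diet liver. These did not overlap, though the normal diet arrays lay far apart, and the log2 difference was 0.38 ± 0.13 (adjusted p = 0.180).

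By the overlap rule 3 members were higher in non-tumour tissue than in normal diet liver (Stab2, Cd34, Plvap) and 2 lower (Pecam1, Kdr), where 44.4% of all genes tested were separate, 13.0% higher and 31.4% lower. Cd34, at 13.2, 8.0 and 7.6 in non-tumour tissue and 6.0 and 6.3 in normal diet liver, had a log2 difference of 0.10 ± 0.14 (adjusted p = 0.759). Kdr averaged 111 ± 31.3 in non-tumour tissue (SD, n = 3) and 158 ± 13.6 in normal diet liver (SD, n = 2), with a log2 difference of -0.27 ± 0.15 (adjusted p = 0.373). Clec4g had 499.4, 481.2 and 515.4 in non-tumour tissue, against 724.5 and 507.4 in normal diet liver, and these overlapped. The log2 differences of the remaining members (Stab1, Lyve1, Clec4g, Fcgr2b, Pecam1 and Vwf) lay between -0.09 and 0.27. The mean sinusoidal minus capillary value was higher in non-tumour tissue by 0.06, within the SD over arrays, and it was -0.11 with the local background.

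Against normal diet liver, tumours again had more Cd34 and Pecam1: 2 of 10 members rose and 0 fell, where 27.8% of all genes tested passed, 12.9% as rises and 15.0% as falls. This comparison shares its tumour arrays with the one against non-tumour tissue, and its normal diet arrays with the preceding one, so the 3 comparisons are not independent. Cd34 averaged 46.9 ± 12.7 in tumours (SD, n = 3) and 6.15 ± 0.212 in normal diet liver (SD, n = 2), a ratio of 7.63, with a log2 difference of 0.86 ± 0.14 (adjusted p = 0.00651). Pecam1 averaged 63.4 ± 18.9 in tumours and 28.9 ± 0.354 in normal diet liver, a ratio of 2.19, with a log2 difference of 0.58 ± 0.12 (adjusted p = 0.0131). The rise of Pecam1 was lost without normal diet array 117 (adjusted p = 0.0818) or 120 (adjusted p = 0.0691). By the overlap rule Lyve1, Pecam1, Cd34 and Plvap were higher and Clec4g and Vwf lower, where 55.9% of all genes tested were separate, 16.8% higher and 39.1% lower. Clec4g had 190.9, 357.9 and 335.4 in tumours, against 724.5 and 507.4 in normal diet liver, with a ratio of means of 0.478 and a log2 difference of -0.63 ± 0.23 (adjusted p = 0.0852). The other sinusoidal markers had positive log2 differences that did not pass either. These were 0.22 ± 0.11 for Stab1 (adjusted p = 0.168) and 0.38 ± 0.13 for Stab2 (adjusted p = 0.0755). For Lyve1 it was 0.27 ± 0.12 (adjusted p = 0.153) and for Fcgr2b 0.36 ± 0.16 (adjusted p = 0.143).

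Other genes listed as sinusoidal moved in different directions between tumour and non-tumour tissue. Of 25 such genes tested, 2 rose and 6 fell, with a median log2 difference of -0.05. Of all genes tested, 12.0% rose and 13.4% fell. The count of falls among the 25 moved both ways with the processing. It was 9 after scaling by the median or without the tumour array of mouse 186, with 2 rises in each. With the authors' values 9 fell and 4 rose. With mouse as a block 2 of the 25 rose and 3 fell, and leaving out the tumour array of mouse 117 gave the same counts. Leaving out the non-tumour array of mouse 1 gave 1 and 3, and that of mouse 186 gave 1 and 6. Clec1b, the CLEC-2 receptor for podoplanin, fell, with 42.3, 58.7 and 69.7 in tumours, against 108.4, 132.4 and 124.1 in non-tumour tissue (log2 difference -0.68 ± 0.09, adjusted p = 0.00341). Whether its fall came from endothelium or from other cells of the tissue, such as macrophages, was not tested. Rspo3, which amplifies Wnt signals to hepatocytes around central veins, fell by 0.50 ± 0.05 in log2 (adjusted p = 0.00149), with 32.3, 45.4 and 33.7 in tumours, against 67.3, 69.9 and 76.2 in non-tumour tissue. Maf, a transcription factor of sinusoidal identity, fell by 0.16 ± 0.03 in log2 (adjusted p = 0.0170), with 7.8, 14.1 and 11.1 in tumours, against 15.6, 16.2 and 19.7 in non-tumour tissue, and was lost without the non-tumour array of mouse 1 (adjusted p = 0.0563). In these 3 genes every tumour lay below every non-tumour array.

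Wnt2, a Wnt ligand made by pericentral sinusoidal endothelium, rose by contrast, with 55.3, 72.9 and 77.3 in tumours, against 35.2, 38.6 and 46.5 in non-tumour tissue (log2 difference 0.44 ± 0.06, adjusted p = 0.00351). Cldn5, a tight junction protein of endothelium, rose too, with 104.0, 93.7 and 178.3 in tumours, against 61.9, 40.2 and 51.7 in non-tumour tissue (log2 difference 0.86 ± 0.18, adjusted p = 0.0167), but was lost without the non-tumour array of mouse 186 (adjusted p = 0.0561) or of mouse 1 (adjusted p = 0.0536). Gata4, a transcription factor that maintains sinusoidal identity, had 4.9, 7.0 and 6.1 in tumours, against 6.2, 6.1 and 8.8 in non-tumour tissue, which overlapped at dim signal (adjusted p = 0.554). Mrc1, the mannose receptor of sinusoidal endothelium and macrophages, had 52.9, 83.3 and 73.1 in tumours, against 75.0, 80.7 and 59.7 in non-tumour tissue, with overlapping groups (adjusted p = 0.988). Between non-tumour tissue and normal diet liver 2 of the 25 sinusoidal genes rose and 0 fell, where 1.81% of all genes tested rose and 2.03% fell. Cd36, a fatty acid transporter that hepatocytes and macrophages also carry, had 1815, 2039 and 1924 in non-tumour tissue, against 473.7 and 309.1 in normal diet liver (log2 difference 2.33 ± 0.31, adjusted p = 0.0168). Clec1b was the other (log2 difference 0.67 ± 0.10, adjusted p = 0.0256). Neither rise was stable: Cd36 was lost in 5 of 19 alternatives and Clec1b in 7 of 19. Neither passed without normal diet array 117 or 120 or the non-tumour array of mouse 117 or 186, and 1 passed without that of mouse 1. Of all genes tested, 12.9% rose and 15.0% fell in tumours against normal diet liver, where the 25 sinusoidal genes had 2 rises and 3 falls. That became 2 and 1 without normal diet array 117 or the tumour array of mouse 1, 1 and 1 without normal diet array 120, 3 and 1 without the tumour array of mouse 117, and 4 and 5 without that of mouse 186.

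General endothelial genes were higher in tumours where they changed. Of 25 tested besides the members, 12 rose and 0 fell in tumours against non-tumour tissue, with a median log2 difference of 0.23. Of all genes tested, 12.0% rose and 13.4% fell. The count of rises among the 25 was 6 with mouse as a block, 7 without the non-tumour array of mouse 186 and 6 without that of mouse 1, and 2 fell when the tumour array of mouse 186 was left out. Cav2, a caveolar coat protein, had 109.9, 97.0 and 184.7 in tumours, against 30.6, 30.8 and 21.7 in non-tumour tissue (log2 difference 1.30 ± 0.17, adjusted p = 0.00296). Cd93, a lectin-like receptor of endothelium and myeloid cells, had 81.3, 81.9 and 112.5 in tumours, against 30.9, 38.1 and 35.0 in non-tumour tissue (log2 difference 0.82 ± 0.08, adjusted p = 0.00118). In both genes the groups were far apart.

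Egfl7, a secreted endothelial protein, rose with 314.1, 419.6 and 323.4 in tumours, against 287.4, 177.1 and 205.1 in non-tumour tissue (adjusted p = 0.0237), but did not pass under the mouse block (adjusted p = 0.0891), nor without the tumour array of mouse 117 or the non-tumour array of mouse 186 or 1. Sox18, an endothelial transcription factor, rose at an adjusted p of 0.0470 that was lost in 14 of 20 alternatives. Cdh5, which encodes VE-cadherin, was listed on 4 of 8 arrays, at 4.7 and 4.2 in tumours of mice 186 and 1 and at 2.4 and 1.3 in non-tumour tissue of mice 117 and 1, and was not tested. Against normal diet liver, 12 of the 25 rose and 0 fell in tumours, where 12.9% of all genes tested rose and 15.0% fell. There were 3 rises when normal diet array 117 was left out, 4 when array 120 was and 7 when the tumour array of mouse 1 was, and 2 falls after scaling by the median. Between non-tumour tissue and normal diet liver 0 of the 25 passed, against 3.84% of all genes tested.

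Genes of capillary, tip cell and basement membrane type had the largest median shift of the 11 lists besides the members. Of 25 tested, 12 rose and 0 fell in tumours against non-tumour tissue, with a median log2 difference of 0.42, and 8 rose with mouse as a block. Of all genes tested, 12.0% rose and 13.4% fell. Nid1, a basement membrane protein that links laminin to collagen IV, had 1526, 928.0 and 2190 in tumours, against 235.0, 216.3 and 165.7 in non-tumour tissue. That is a ratio of means of 7.53, with a log2 difference of 2.84 ± 0.26 (adjusted p = 0.000924). Col4a2, a chain of basement membrane collagen IV, had 155.9, 184.4 and 193.1 in tumours, against 56.6, 77.2 and 58.2 in non-tumour tissue (log2 difference 1.11 ± 0.09, adjusted p = 0.000727). Every tumour exceeded every non-tumour array for both basement membrane genes, which cells other than endothelium also make.

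Esm1, a proteoglycan of endothelial tip cells, had 191.6, 106.4 and 233.5 in tumours, against 14.5, 41.0 and 12.3 in non-tumour tissue, and its ratio of means was 7.84. Its log2 difference was 1.77 ± 0.27 (adjusted p = 0.00503, and 0.0501 with mouse as a block). Unc5b, a netrin receptor of sprouting vessels, had 177.1, 107.5 and 136.7 in tumours, against 58.5, 38.1 and 30.9 in non-tumour tissue (log2 difference 1.15 ± 0.19, adjusted p = 0.00683). The groups were separate for both genes. Against normal diet liver 13 of the 25 rose in tumours and 0 fell, where 12.9% of all genes tested rose and 15.0% fell. Nid1 had the largest change of the 13, with 99.4 and 93.4 in normal diet liver and a log2 difference of 3.73 ± 0.29 (adjusted p = 0.000541). Fabp4, a fatty acid binding protein of capillary endothelium, adipocytes and macrophages, had 601.0, 394.1 and 1024 in tumours, against 103.4 and 137.6 in normal diet liver (log2 difference 2.31 ± 0.32, adjusted p = 0.00338). Between non-tumour tissue and normal diet liver 0 of the 25 passed, against 3.84% of all genes tested.

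**Figure D5:**
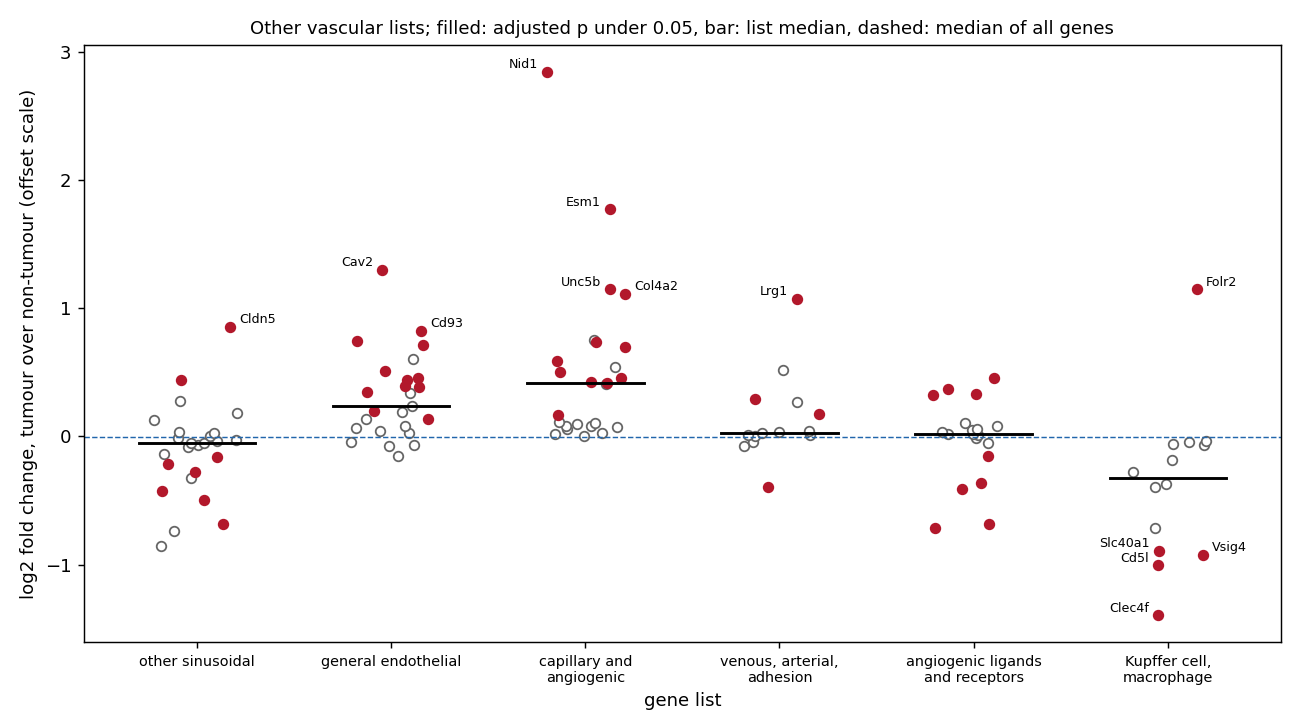
Fitted log2 difference, tumour minus non-tumour, of each tested gene in 6 lists besides the members, from other sinusoidal genes on the left to macrophage markers on the right, with a bar at each list's median, a dashed line at the median of all genes and filled points where the adjusted p was below 0.05. Names are given for those that passed with a size above 0.8. The list medians are -0.05 for other sinusoidal, 0.23 for general endothelial and 0.42 for capillary genes.

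Among ligands and receptors of vessel growth, 4 of 19 tested rose and 5 fell in tumours against non-tumour tissue, with a median log2 difference of 0.02. Of all genes tested, 12.0% rose and 13.4% fell. Only 2 of the 19 rose after scaling by the median, or when the non-tumour array of mouse 117 or any 1 of the tumour arrays was left out. Vegfa, the main ligand of Kdr, had 85.7, 82.9 and 85.4 in tumours, against 64.9, 61.2 and 58.1 in non-tumour tissue. The groups were separate, but the rise (log2 difference 0.33 ± 0.09, adjusted p = 0.0391) was lost in 10 of 20 alternatives, and both normal diet arrays (120.0 and 78.3) were as high as tumours or nearly so. Nrp1, a co-receptor that binds Vegfa with Kdr, had 53.2, 67.9 and 58.6 in tumours, against 114.1, 138.4 and 132.5 in non-tumour tissue and 218.6 and 308.9 in normal diet liver. It fell between tumour and non-tumour tissue (log2 difference -0.69 ± 0.12, adjusted p = 0.00789), between non-tumour tissue and normal diet liver (-0.67 ± 0.13, adjusted p = 0.0492, lost in 10 of 19 alternatives) and between tumour and normal diet liver (-1.35 ± 0.13, adjusted p = 0.00105). The loss included leaving out normal diet array 120 or any 1 of the 6 high fat diet arrays. The 3 groups of Nrp1 did not overlap.

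Nrp2, a related co-receptor, fell by 0.41 ± 0.08 in log2 (adjusted p = 0.0110), with 33.8, 33.9 and 38.1 in tumours, against 68.9, 52.3 and 66.5 in non-tumour tissue. Fgf1, a heparin-binding growth factor, fell by 0.72 ± 0.09 in log2 (adjusted p = 0.00235), with 71.7, 86.1 and 65.6 in tumours, against 172.7, 134.8 and 171.5 in non-tumour tissue. Epas1, the hypoxia-regulated transcription factor of endothelium, rose by 0.46 ± 0.07 in log2 (adjusted p = 0.00614), with 32.2, 29.3 and 40.0 in tumours, against 16.2, 11.1 and 9.7 in non-tumour tissue. Groups were separate for all 3 genes. Vegfb, a ligand of Flt1, rose in non-tumour tissue against normal diet liver, with 243.0, 229.2 and 218.1, against 178.1 and 178.8 (log2 difference 0.41 ± 0.06, adjusted p = 0.0191). That was lost in 7 of 19 alternatives, among them the authors' values (adjusted p = 0.106) and leaving out normal diet array 117 or 120 or the non-tumour array of mouse 117 or 186. Of 14 venous, arterial and adhesion genes tested, 3 rose and 1 fell in tumours against non-tumour tissue, where 12.0% of all genes tested rose and 13.4% fell. Without the tumour array of mouse 1 or of mouse 186, 1 of the 14 rose and 1 fell. The 1 that fell was Nr2f2, the transcription factor of venous identity, at 55.9, 61.3 and 56.1 in tumours, against 103.2, 75.9 and 104.3 in non-tumour tissue (log2 difference -0.40 ± 0.07, adjusted p = 0.00842). The 3 that rose were Lrg1 (adjusted p = 0.0218), Ednrb (adjusted p = 0.0298) and Icam1 (adjusted p = 0.00838). Their calls were lost in 7, 7 and 4 of 20 alternatives. Against normal diet liver 4 of the 14 rose in tumours and 2 fell, where 12.9% of all genes tested rose and 15.0% fell. That became 2 and 0 without normal diet array 117 or 120.

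Several members are also carried by other cells, and marker lists for those cells were read on the same arrays. Stab1, Lyve1 and Fcgr2b occur on macrophages. Of 14 Kupffer cell and macrophage markers tested, 1 rose and 4 fell in tumours against non-tumour tissue, where 12.0% of all genes tested rose and 13.4% fell. The summed level of the 14 markers was 1743 to 2373 in tumours, 2999 to 3427 in non-tumour tissue and 2219 to 2634 in normal diet liver. Clec4f, which is specific to mouse Kupffer cells, had 66.9, 98.1 and 48.8 in tumours, against 290.5, 180.2 and 376.9 in non-tumour tissue (log2 difference -1.39 ± 0.24, adjusted p = 0.00801, and 0.0632 with mouse as a block). Folr2, a folate receptor of tissue macrophages, had 367.7, 256.7 and 465.1 in tumours, against 167.9, 142.7 and 151.6 in non-tumour tissue (log2 difference 1.15 ± 0.17, adjusted p = 0.00487). The macrophage sum was thus lower in every tumour than in every non-tumour array. The list's median log2 difference was -0.32 there, and 0.21 between non-tumour tissue and normal diet liver. The part of macrophages in the values of Stab1, Lyve1, Fcgr2b, Mrc1 and Clec1b was not tested.

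Fcgr2b is also a B cell gene. The 6 B cell markers on the array summed to 42.6 to 66.7 in tumours, 39.2 to 111 in non-tumour tissue and 59.6 to 75.7 in normal diet liver, and of 4 tested 0 passed in tumours against non-tumour tissue. Cr2 was listed on no array, and Pax5 and Blk were not listed on every array. Pecam1 and Vwf are also platelet genes. The 9 platelet markers on the array summed to 98.8 to 144 in tumours, 119 to 141 in non-tumour tissue and 111 to 124 in normal diet liver, with Itga2b and Gp6 not listed on every array. Of 8 tested 0 passed in tumours against non-tumour tissue. In tumours against normal diet liver Pf4 (adjusted p = 0.0260) and Itgb3 (adjusted p = 0.0475) passed, 1 as a rise and 1 as a fall. These calls were lost in 3 and 14 of 19 alternatives. Lyve1 is also a lymphatic gene, and the lymphatic list on the array held Pdpn, Prox1, Mmrn1 and Reln. It summed to 99.3 to 109 in tumours, 115 to 125 in non-tumour tissue and 132 to 134 in normal diet liver, with 0 of 4 tested passing. Reln is also on the mural and stellate list, so this sum is not specific to lymphatic vessels. Mmrn1 was not listed on every array. Of 10 mural and stellate cell markers 0 rose and 2 fell in tumours against non-tumour tissue, with 1 fall when any 1 of the 6 high fat diet arrays was left out. Against normal diet liver 1 rose and 1 fell in tumours. The mural and stellate markers summed to 386 to 681 in tumours, 514 to 649 in non-tumour tissue and 312 to 432 in normal diet liver. Over all genes tested, 12.0% rose and 13.4% fell in tumours against non-tumour tissue, and 12.9% and 15.0% against normal diet liver. The B cell, platelet and mural sums of tumours overlapped those of non-tumour tissue. The sum of the 4 genes on the lymphatic list was lower in tumours, which is not a reading of lymphatic vessels alone. The part of these cells in the members' values was not tested.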

How the data were processed

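The 8 single-colour arrays carried amplified aminoallyl RNA coupled to Cy5, per the labels' protocols. Setting the deposited intensities against the scanner files showed what the authors' values are: each spot median, less the average of blank spots on its array, over a single factor for that array (r2 = 1 on every array), with 81.8% to 88.5% of 23473 probes listed. The tests started from the deposited scanner signal (spot median). Background was modelled from the blank spots (normexp, offset 50), arrays were brought to common quantiles and values were analysed as log2 (limma 3.58.1, R 4.3.3). Blank spots were chosen because the local background reading followed its own spot's signal (Spearman correlation 0.902 to 0.960 over spots). The image software and its settings are not given in the sources used here.

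Symbols came from the platform's probe table, where 20690 probes had 1 gene, 2783 had none and 0 had several. For the 1283 genes of 19321 with more than 1 probe, the probe with the highest mean was used. A gene needed a deposited value on every array of some group to be tested, which 16800 had and 2521 had not. The model held 3 group means over the 8 arrays, with 5 residual degrees of freedom (1.49 prior), and their 3 differences were tested 2-sided by limma's moderated statistic with Benjamini-Hochberg adjustment. The number of arrays limits the precision.

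Per the labels, tumour and non-tumour arrays of 1 mouse number are from the same liver. Their deviations from the group means had correlations of 0.443 in mouse 117, 0.148 in mouse 186 and 0.167 in mouse 1, against -0.275 to 0.028 between mice. Mouse entered an alternative as a block, and 20 alternatives were run in all. No slide or scan date was in the files, so batches were not examined. Array readings nevertheless differed with diet. The mean of blank spots was 18.4 and 18.5 on normal diet arrays 117 and 120, and 20.5 to 22.7 on high fat diet arrays. The single factor of each array was 0.83 and 0.77 on those normal diet arrays, and 1.11 to 1.29 on high fat diet arrays. Every comparison with normal diet liver shares this split, and its part in those comparisons was not tested.

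The 10 members and the 11 other lists (170 names, 165 on the array, 160 tested) were chosen with earlier results of these data known. Named genes were the members, up to 4 genes of each list past the threshold in a comparison by size of change, and Gata4, Vegfa, Maf, Cdh5, Mrc1 and Clec4f. Not every gene that rule allowed is given.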

Additional observations from a re-analysis of the deposited data

How the results depend on the processing

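The mouse block changed no member's call: 2 members rose in tumours against non-tumour tissue with and without it (adjusted p = 0.0194 for Cd34 and 0.0399 for Pecam1 with the block), while all genes passing numbered 3485, against 4267. Cd34 passed in 19 of 20 alternatives and Pecam1 in 19 of 20. The exception was the local background, under which 0 members passed in tumours against non-tumour tissue and 0 in tumours against normal diet liver, and 125, 3 and 217 genes passed in all, against 4267, 645 and 4675 (tumour against non-tumour, non-tumour against normal diet, tumour against normal diet). Nrp2 turned to 0.087 (log2) in tumours against non-tumour tissue under the local background (adjusted p = 0.938). The cause was not tested.

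The sinusoidal minus capillary difference between tumour and non-tumour tissue was -0.051 with the local background, -0.48 with an offset of 16, -0.65 with the authors' values and -0.74 with their pseudocount at 1, against -0.32. A smaller offset or pseudocount compresses dim probes less, and the authors' values were also not brought to common quantiles. The part of each in these changes was not tested. Between non-tumour tissue and normal diet liver it was -0.11 with the local background, against 0.06. Between tumours and normal diet liver the sinusoidal mean was higher in tumours by 0.12 and the capillary mean by 0.38. The sinusoidal minus capillary difference there was -0.26 (SD over arrays 0.16 in tumours and 0.11 in normal diet liver). Leaving out 1 member at a time gave -0.07, without Clec4g, to -0.36, without Vwf. It was -0.16 with the local background, -0.61 with the authors' values and -0.71 with their pseudocount at 1. The median of all genes in that comparison was itself -0.15 with the authors' values and -0.20 at pseudocount 1, and -0.12 for non-tumour tissue against normal diet liver at pseudocount 1.

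In non-tumour tissue against normal diet liver 1 member (Plvap) rose with an offset of 16, median scaling, the authors' values, the compared groups alone or an intensity trend, and leaving out 1 array gave 0 to 1 members. In tumours against normal diet liver median scaling gave 5 members and an intensity trend 5, against 2. Leaving out 1 array gave 1 to 6 there, with 6 without the tumour of mouse 117, 4 without that of mouse 186 and 1 without normal diet array 117. The 6 were rises of Stab1, Stab2, Fcgr2b, Pecam1, Cd34 and Plvap. Median scaling likewise added rises of Stab2, Lyve1 and Plvap in tumours against normal diet liver. Clec4g fell there in 4 of 19 alternatives, among them the authors' values (adjusted p = 0.00818). Against non-tumour tissue, leaving out 1 array gave 2 to 3. Of 580 member values under alternatives, 34 changed sign, none of them past the threshold.

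Counts over all genes in non-tumour tissue against normal diet liver ranged from 100 to 783 when 1 array was left out, and were 1121 with median scaling and 1111 with the authors' values, against 645. In tumours against normal diet liver they were 2316 and 2476 without normal diet array 117 or 120, against 4675. Of the genes passing in tumours against non-tumour tissue 36.0% rose with median scaling, against 47.1%. In non-tumour tissue against normal diet liver 73.3% rose with median scaling and 33.5% with the authors' values, against 47.1%. In tumours against normal diet liver 31.3% rose with the authors' values, against 46.2%.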
